A study of Mus musculus with 2 samples.

Results

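Memory-like CD8 T cells of the mouse spleen were described in single-cell RNA libraries from a Glutoborin and a Vehicle group. A member had at least 2 UMIs (unique molecular identifiers, each standing for 1 captured RNA molecule) of Cd3e, Cd3d and Cd3g together, at least 1 UMI of Cd8b1, none of Cd4 and at most 2 of the B cell gene Cd79a. It also had a UMI of at least 3 of the 6 genes Eomes, Cxcr3, Ctla2a, Gzmm, Cd160 and Il2rb, or of at least 2 of them with at least 3 UMIs of Ccl5. These 7 are called the rule genes here. The rule found 417 members among 15941 kept cells: 240 of 9253 in the Glutoborin library and 177 of 6688 in the Vehicle library. The CD8 T cells that passed the lineage gate and missed the memory rule, called the remaining CD8 T cells, numbered 951 in Glutoborin and 689 in Vehicle.

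Memory-phenotype CD8 T cells in a mouse spleen arise after antigen encounter and also without it, under homeostatic cytokines. Il2rb encodes the receptor chain through which such cells receive interleukin-15, and Eomes encodes a T-box transcription factor that they need. They are known for quick release of interferon gamma and chemokines, and for carrying receptors otherwise typical of NK cells.

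All mice, in both groups, were wild type (WT) and infected: the labels name an infection of 10000 iRBCs for 5 days, given intraperitoneally. The abbreviation iRBCs is left unexplained by the labels. The tested animals were then given Glutoborin, a compound the labels do not describe, on days 2 and 4, and the control animals were given Vehicle on the same days. Spleens were collected on day 5, lymphocytes were isolated and CD45+ cells, the leukocytes, were sorted. Each group is 1 library, and the labels do not say how many mice it holds.

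The libraries held 56862506 UMIs over 9646 barcodes in Glutoborin and 48526451 UMIs over 8204 barcodes in Vehicle. Barcodes at or over 10% mitochondrial UMIs made up 4.07% in Glutoborin and 18.5% in Vehicle and were left out. The libraries shared 24 barcode sequences, and no member's barcode was among them. Because there is 1 library per group, no test was possible: every interval is an exact 95% interval that covers counting error only, and none covers the spread between mice or libraries.

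The label was checked against its markers, which are also genes of the rule, so these levels describe the choice of cells and carry no test. Levels are UMIs per 1000000 UMIs of the summed cells (CPM). Eomes stood at 131 CPM in Glutoborin members and 108 CPM in Vehicle members, and Cxcr3, the receptor for interferon-induced chemokines, at 100.2 and 95.4 CPM. Gzmm, a granzyme, stood at 74.0 CPM in Glutoborin and 48.7 CPM in Vehicle members, and Ctla2a, a protease inhibitor gene, at 458 and 379 CPM. Ccl5, a chemokine stored by memory CD8 T cells, was the most abundant rule gene, at 3269 CPM in Glutoborin and 1584 CPM in Vehicle members. A single Glutoborin member carried a median of 19 Ccl5 UMIs, against 6 in Vehicle. Il2rb had 328 and 360 CPM, and Cd160, an NK-type receptor, 109 and 110 CPM, in Glutoborin and Vehicle members.

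The T cell identity genes were present in members at levels near those of the remaining CD8 T cells. Cd8a, whose product pairs with that of Cd8b1, had 379 CPM in Glutoborin and 336 CPM in Vehicle members, against 437 and 441 CPM in the remaining CD8 T cells of the same libraries. Trac, the constant gene of the alpha chain of the T cell receptor, had 616 and 548 CPM in members and 557 and 575 CPM in the remaining cells. After thinning each cell to 2000 UMIs, Eomes was detected in 21.7% of Glutoborin and 21.5% of Vehicle members, and in 0.194% and 0.269% of B cells, which should lack it. Unthinned, Eomes was detected in 60.4% and 59.3% of members and in 0.554% and 0.861% of B cells. The median depths were 10842.5 UMIs in Glutoborin and 12266 UMIs in Vehicle members, and 4086 and 4754 UMIs in B cells.

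At the threshold of the rule, 137 Glutoborin and 104 Vehicle CD8 T cells carried exactly 2 of the 6 genes, and 28 and 19 of them entered through Ccl5. Another 76 Glutoborin and 67 Vehicle cells carried exactly 3 and entered without it.

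Members made up a like part of the gated CD8 T cells in both libraries: 20.2% in Glutoborin (interval 17.9 to 22.5%) and 20.4% in Vehicle (17.8 to 23.3%). The log2 ratio was -0.02, with an interval of -0.31 to 0.27. Of all kept cells they were 2.59% in Glutoborin and 2.65% in Vehicle. The rule needs several genes to be seen in 1 cell, so it takes deep cells more readily. Among CD8 T cells of 4000 to 8000 UMIs, 4.59% in Glutoborin and 4.27% in Vehicle were members, and from 12000 UMIs upward 78.4% and 77.0%. Between 8000 and 12000 UMIs the shares stood apart, at 41.8% in Glutoborin (35.9 to 47.8%) and 27.0% in Vehicle (21.3 to 33.2%). Cells of at least 5000 UMIs were also thinned to that depth before the gate and rule. This left 1020 Glutoborin and 817 Vehicle CD8 T cells, against 1191 and 866 unthinned. Among those left, 17.2% in Glutoborin and 13.7% in Vehicle were members, a log2 ratio of 0.32, for which no interval was taken. The remaining CD8 T cells were shallower, with medians of 6370 UMIs in Glutoborin and 7015 UMIs in Vehicle.

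Members differed from the remaining CD8 T cells in NK-type receptors, cytotoxic genes and cell cycle genes, most of which were higher. Interferon-induced GTPases and some naive T cell genes were lower. Both groups of cells come from 1 gate split on 7 genes, so these differences describe the chosen cells. Of 9393 measured genes, 551 (5.87%) were at least 1.5-fold higher in members in both libraries and 454 (4.83%) were at least 1.5-fold lower in both. Of the 15 measured NK-type receptor genes, 13 were higher in both libraries, and of the 19 measured cytotoxic effector genes 15 were. So were 20 of 23 S phase genes, with median log2 ratios of 1.22 in Glutoborin and 2.32 in Vehicle. For G2 and M phase genes it was 16 of 20, with medians of 1.72 and 2.85. Of 33 memory and innate-like memory genes, 20 were higher in both, among them Cd44, the adhesion receptor that defines memory phenotype by flow cytometry, with 52.1 CPM in Glutoborin and 56.0 CPM in Vehicle members against 11.4 and 19.1 CPM in the remaining cells.

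Klrc1 encodes NKG2A, an inhibitory receptor of NK cells and some memory CD8 T cells. It had 77.5 CPM in Glutoborin and 58.3 CPM in Vehicle members, against 0.933 and 0.586 CPM in the remaining cells. Klrk1, which encodes the activating receptor NKG2D, had 94.8 and 64.5 CPM in members and 2.80 and 6.84 CPM in the remaining cells. Both receptors were higher in members of each library, Klrc1 by log2 ratios of 6.38 and 6.64 and Klrk1 by 5.08 and 3.24. Without members carrying Trdc, Zbtb16, Klrb1c or Ncr1, Klrk1 stood at 2.16 in Vehicle, and with the rule on cells thinned to 2000 UMIs Klrc1 stood at 3.44 in Glutoborin and 3.52 in Vehicle.

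Gzmb, the granzyme of armed killer cells, had 221 CPM in Glutoborin and 305 CPM in Vehicle members, against 6.999 and 5.47 CPM in the remaining cells. A Gzmb UMI was seen in a minority, 17.1% of Glutoborin and 22.03% of Vehicle members (7.08% and 12.4% after thinning), against 1.13% and 2.32% of B cells (0.582% and 1.14%). Its log2 ratio over the remaining cells was 4.98 in Glutoborin and higher in Vehicle. Without members carrying at least 2 of 8 mitosis genes it was 3.32 in Glutoborin and 3.61 in Vehicle, while the remaining cells kept theirs. Ifng, encoding interferon gamma, had 47.4 CPM in Glutoborin and 59.1 CPM in Vehicle members, against 0.622 and 4.298 CPM in the remaining cells. Tbx21, the T-box factor T-bet and partner of Eomes, had 40.2 and 52.5 CPM in members and 4.04 and 3.32 CPM in the remaining cells.

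Ccl4, an inflammatory chemokine, had 97.6 CPM in Glutoborin and 60.2 CPM in Vehicle members, against 18.7 and 6.25 CPM in the remaining cells. Hopx, a small homeodomain protein gene of differentiated T cells, had 248 and 252 CPM in members and 55.7 and 53.3 CPM in the remaining cells. It was spread more widely: after thinning, a Hopx UMI was seen in 36.7% of Glutoborin and 36.2% of Vehicle members, against 5.23% and 5.41% of B cells, and unthinned in 85.4% and 82.5% of members and 11.8% and 12.8% of B cells. The other genes named on this side were Plek, Slamf7, Serpinb6b, Lgals1, Anxa2, 1700025G04Rik, Gzma, Stmn1 and Birc5. Their log2 ratios lay between 2.08 and 5.29 in Glutoborin and between 2.29 and 3.49 in Vehicle. With the rule on cells thinned to 2000 UMIs, Stmn1 stood at 0.92 in Glutoborin and 0.89 in Vehicle. Birc5 then stood at 1.02 in each library. In that setting, cells that the rule misses at the lower depth join the remaining cells. When members with at least 2 of 8 mitosis genes, Birc5 among them, were left out, the remaining CD8 T cells kept theirs. Stmn1 then turned to -1.09 in Glutoborin and Birc5 to -3.04 in Glutoborin and -3.99 in Vehicle. In this setting 294 of 9198 measured genes were at least 1.5-fold higher in both libraries, in place of 551 of 9393. As cells were taken from the members only, these turns are shaped by the setting and carry no test.

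On the lower side Ccr9, a receptor for homing to the small intestine, had 12.2 CPM in Glutoborin and 12.4 CPM in Vehicle members, against 96.7 and 124 CPM in the remaining cells. Of 18 naive and central memory genes, 7 were lower in both libraries and 2 (Cd28 and Id3) were higher. Ccr7, the lymph node homing receptor, had 93.3 CPM in Glutoborin and 96.9 CPM in Vehicle members, against 218 and 244 CPM in the remaining cells.

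The interferon gamma-induced list was also lower in members, with 19 of its 29 measured genes at least 1.5-fold lower in both libraries and 1 higher. The list medians of the log2 ratio were -0.98 in Glutoborin and -1.05 in Vehicle, against 0.01 and -0.02 over all measured genes. The type I interferon-induced list was lower too, with 18 of 55 measured genes lower in both libraries and 1 higher. Its medians were -0.43 in Glutoborin and -0.62 in Vehicle. Iigp1, an immunity-related GTPase that acts on vacuoles of intracellular parasites, had 25.1 CPM in Glutoborin and 31.7 CPM in Vehicle members, against 142 and 207 CPM in the remaining cells. Gbp2, a guanylate-binding protein, had 64.3 and 110.1 CPM in members and 195 and 332 CPM in the remaining cells. Ifngr1, the ligand-binding chain of the interferon gamma receptor, was not lower, at 187 and 131 CPM in members and 97.5 and 103 CPM in the remaining cells.

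The remaining genes named on the lower side were Igfbp4, Gm12840, Ramp1, Igtp, Rgcc, Tgtp1, Ssbp2, Gbp4, Gbp8 and Tgtp2. Igtp, Tgtp1, Tgtp2, Gbp4 and Gbp8 belong to the same GTPase families as Iigp1 and Gbp2. Tgtp1 and Tgtp2 are near-identical copies, and reads of 1 may have been counted to the other.

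**Figure D1:**
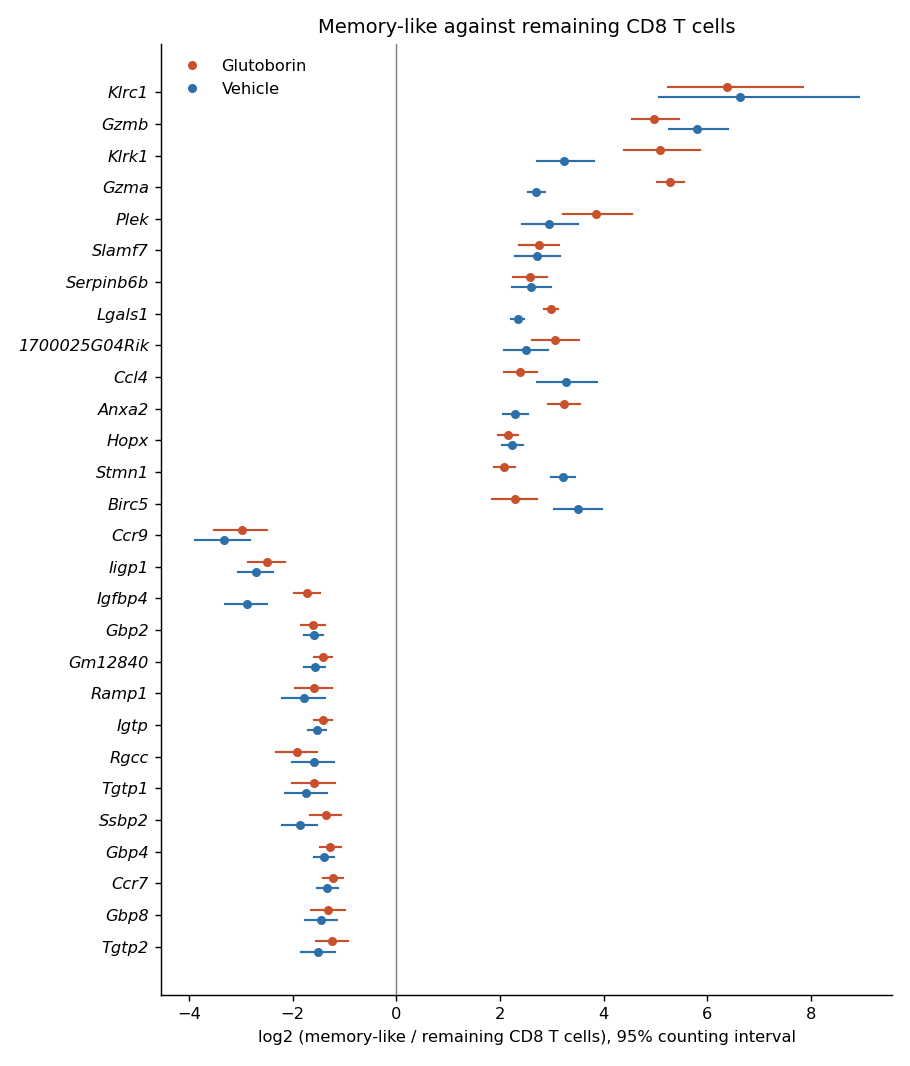
Log2 ratio of CPM in memory-like over remaining CD8 T cells for 28 genes named by rule, in the Glutoborin (red) and Vehicle (blue) libraries. Points are ratios and lines are exact 95% counting intervals. Klrc1 is at 6.38 in Glutoborin and 6.64 in Vehicle, and Ccr9 at -2.99 and -3.33.

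Genes outside the rule varied with the number of rule genes seen in a cell, on both sides of the threshold, though not in order at every step. Cd44 had 12.8 CPM in Glutoborin and 16.7 CPM in Vehicle CD8 T cells with no rule gene of the 6, 36.8 and 48.9 CPM with 3, and 58.8 and 49.9 CPM with 5 or 6. Tbx21 had 2.09 and 0.857 CPM with none, 31.7 and 18.5 CPM with 3, and 51.4 and 76.0 CPM with 5 or 6. In the other direction, Igfbp4, a gene of naive CD8 T cells, had 193 CPM in Glutoborin and 165 CPM in Vehicle cells with none, 92.6 and 42.3 CPM with 3, and 14.7 and 5.94 CPM with 5 or 6. Lef1, a transcription factor of naive and early memory T cells, had 597 and 649 CPM with none and 251 and 164 CPM with 5 or 6. Cells with more rule genes were also deeper: the median was 5967 UMIs in Glutoborin and 6613 UMIs in Vehicle with none, and 12382.5 and 15480.5 UMIs with 5.

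**Figure D2:**
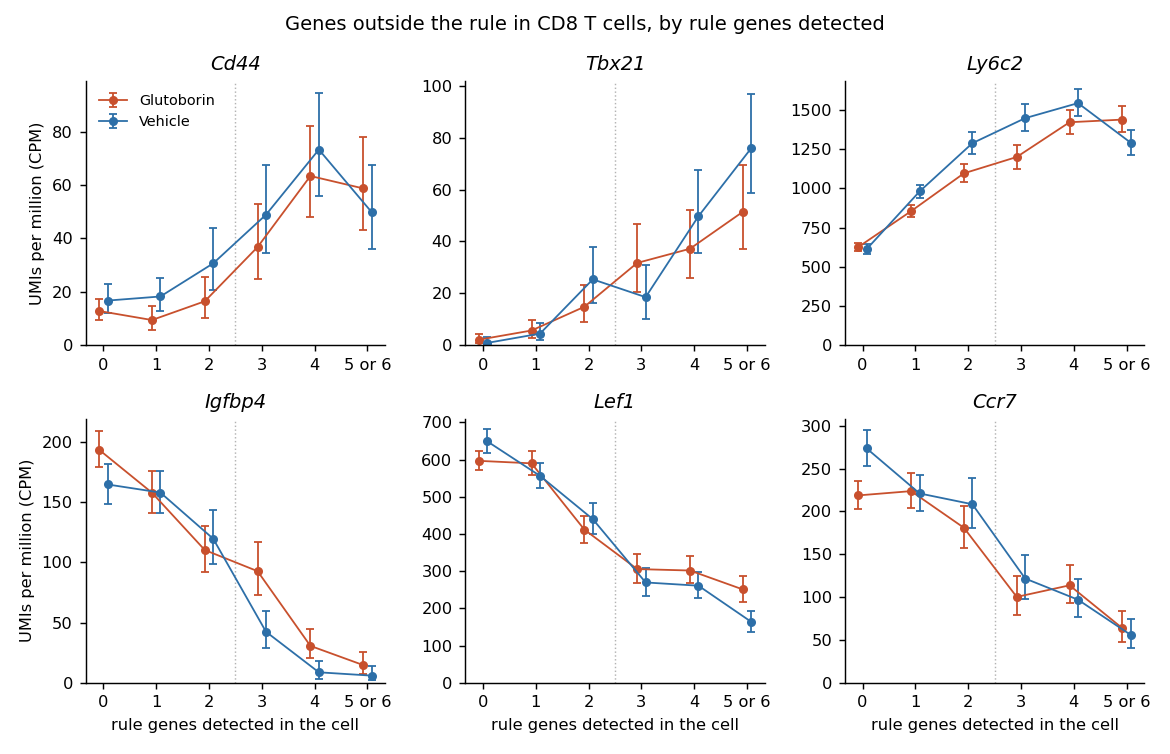
CPM of 6 genes that the rule did not use, in gated CD8 T cells grouped by how many of the 6 genes were detected, in Glutoborin (red) and Vehicle (blue). Lines on points are exact 95% Poisson intervals, and cells right of the dotted line are all members. Cd44, Tbx21 and Ly6c2 are higher and Igfbp4, Lef1 and Ccr7 are lower in cells with 5 or 6 rule genes than in cells with none.

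NK cells, 274 in Glutoborin and 163 in Vehicle, were taken as cells with no Cd3 UMI and a UMI of at least 2 of Ncr1, Klrb1c and Klre1. Set beside them, members had less of the granule and receptor genes Nkg7, Gzma and Ncr1 and more Il7r. Nkg7, a granule membrane gene, had 1288 CPM in Glutoborin and 1219 CPM in Vehicle members, against 4318 and 4684 CPM in NK cells. Gzma had 837 and 507 CPM in members and 12126 and 13147 CPM in NK cells. Ncr1, which encodes the NK receptor NKp46, had 37.7 and 19.3 CPM in members and 884 and 1026 CPM in NK cells, which were chosen in part by this gene. Il7r, the interleukin-7 receptor of naive and memory T cells, had 405 and 289 CPM in members against 33.5 and 12.8 CPM in NK cells.

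Some members carried genes of innate T cells. At least 1 UMI of Trdc, Zbtb16, Klrb1c or Ncr1 was found in 35 of 240 Glutoborin members (14.6%, 10.4 to 19.7%). In Vehicle it was 17 of 177 members (9.60%, 5.70 to 14.9%). At least 2 of these 4 genes were found in 5.00% of Glutoborin and 4.52% of Vehicle members. Trdc, the constant gene of the delta chain, had 72 UMIs in 18 Glutoborin members and 13 UMIs in 3 Vehicle members. The 6 gamma-delta markers summed to 54.9 CPM in Glutoborin and 40.5 CPM in Vehicle members, with Trdv4 and Sox13 at 0 in both. The 8 NK markers summed to 1238 CPM in Glutoborin and 875 CPM in Vehicle members, against 122 and 273 CPM in the remaining cells. Of these sums, Gzma alone had 837 and 507 CPM in Glutoborin and Vehicle members. Some ratios between the groups without these members are given below, but their part in the differences was not tested.

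Markers of other lineages were present at low level. The 6 B cell markers summed to 538 CPM in Glutoborin and 725 CPM in Vehicle members, against 27697 and 24366 CPM in B cells. The 6 myeloid markers summed to 667 CPM in Glutoborin and 322 CPM in Vehicle members. Among these S100a8, a neutrophil gene, had 443 UMIs in Glutoborin and 18 UMIs in Vehicle members, and 3 Glutoborin cells held 96.6% of the Glutoborin UMIs. The CD4 T cell markers summed to 22.6 and 38.6 CPM, the dendritic markers to 17.2 and 14.3 CPM and the red cell markers to 2.51 and 1.93 CPM in Glutoborin and Vehicle members, and the platelet genes Ppbp and Pf4 were at 0 in both. Doublet calls fell on 9 of 240 Glutoborin and 5 of 177 Vehicle members, which were kept.

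Between the groups, Glutoborin members had lower type I interferon-induced and cell cycle genes than Vehicle members, while lists of naive, memory and NK-receptor genes had medians above the all-gene median with few genes past 1.5-fold. Of 7172 measured genes (at least 50 UMIs over both libraries), 281 (3.92%) were at least 1.5-fold higher and 646 (9.01%) at least 1.5-fold lower in Glutoborin. The split depends on the scaling: with TMM factors 359 were higher and 549 lower, and with median-of-ratios factors 398 were higher and 510 lower. The median log2 ratio over all measured genes was -0.07.

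Of 50 measured genes of the type I interferon-induced list, 29 were at least 1.5-fold lower in Glutoborin members and none was higher, and the list median was -0.67. Isg15, a ubiquitin-like protein attached to others after interferon, had 73.2 CPM in Glutoborin and 200.04 CPM in Vehicle members (log2 ratio -1.45, interval -1.69 to -1.21). Ifit3, which encodes a protein that binds foreign RNA complexes, had 41.3 CPM in Glutoborin and 116 CPM in Vehicle members (-1.49, -1.82 to -1.18). Ifitm3, encoding a membrane protein that blocks virus entry, had 52.1 CPM in Glutoborin and 150 CPM in Vehicle members (-1.53, -1.81 to -1.25), and 3 cells held 67.6% of its Glutoborin and 55.7% of its Vehicle UMIs. The ratio of Ifitm3 was -2.60 without doublet calls and -3.07 without members carrying Trdc, Zbtb16, Klrb1c or Ncr1. It was -1.98 without its 3 richest cells in each library and -1.23 without the Ccl5 route into the rule. Isg15 was more evenly spread: its 3 richest cells held 13.7% in Glutoborin and 13.5% in Vehicle.

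The count of lower genes in the type I interferon list depended on which cells were summed. With the rule on cells thinned to 2000 UMIs, which left 60 Glutoborin and 36 Vehicle members, 13 of 30 measured genes were lower by that fold. The list median was then -0.36, and Ifit3 stood at -1.01. Without members over 30000 UMIs, 37 of 49 measured genes were at least 1.5-fold lower, and without members carrying at least 2 of 8 mitosis genes 37 of 48. Irf7, the factor that amplifies interferon production, had 89.7 CPM in Glutoborin and 171 CPM in Vehicle members, and Zbp1, a nucleic acid sensor, 79.3 and 173 CPM. Trim12c was the only measured gene of the list with a ratio above 0, at 85.1 CPM in Glutoborin and 77.2 CPM in Vehicle members (0.14, -0.14 to 0.42). In the remaining CD8 T cells the median of the same list was -0.87, with Isg15 at 126 CPM in Glutoborin and 323 CPM in Vehicle. The difference between the cell groups was not tested.

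Promoters of the named lower genes are shown because interferon-stimulated response elements and E2F sites are the textbook elements of these gene groups. Sequences are RefSeq promoters on GRCm38.p6, 250 bases before to 50 after the start, read 5′ to 3′ on the gene's strand. The letters GAAA, then any 2 bases, then GAAA again were searched for interferon genes and TTTGGCGC or TTTCCCGC for cell cycle genes, each on both strands, and matches are in capitals. The first was present in 3.99% of 27025 genes with a promoter in the table, and in 22 of the 41 measured type I interferon genes that have one. It was also present in 11 of 20 measured interferon gamma-induced genes with a promoter, so it does not set the type I list apart. The E2F letters were present in 1.80% of all genes and in 7 of 18 measured S phase genes. Of the 10 named lower genes 8 had a promoter in the table and 6 held a match. Isg15 lies at chr4:156200769-156201068, Ifit3 at chr19:34583279-34583578, Ifitm3 at chr7:141010695-141010994, Pclaf at chr9:65890073-65890372, Hells at chr19:38930740-38931039 and Mcm5 at chr8:75109259-75109558. Isg15 and Ifitm3 are on the minus strand and the other 4 on the plus strand.
Isg15: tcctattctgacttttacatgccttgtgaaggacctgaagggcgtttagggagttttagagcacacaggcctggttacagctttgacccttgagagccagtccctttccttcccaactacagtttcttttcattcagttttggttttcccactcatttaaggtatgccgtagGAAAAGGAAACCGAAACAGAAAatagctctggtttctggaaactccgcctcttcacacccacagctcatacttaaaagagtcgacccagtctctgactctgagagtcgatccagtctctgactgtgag
Ifit3: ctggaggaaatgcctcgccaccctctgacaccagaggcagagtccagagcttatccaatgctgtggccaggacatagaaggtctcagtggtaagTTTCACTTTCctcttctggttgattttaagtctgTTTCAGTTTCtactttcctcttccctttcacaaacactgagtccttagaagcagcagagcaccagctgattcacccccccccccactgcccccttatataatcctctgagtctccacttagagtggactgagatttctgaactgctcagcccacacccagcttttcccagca
Ifitm3: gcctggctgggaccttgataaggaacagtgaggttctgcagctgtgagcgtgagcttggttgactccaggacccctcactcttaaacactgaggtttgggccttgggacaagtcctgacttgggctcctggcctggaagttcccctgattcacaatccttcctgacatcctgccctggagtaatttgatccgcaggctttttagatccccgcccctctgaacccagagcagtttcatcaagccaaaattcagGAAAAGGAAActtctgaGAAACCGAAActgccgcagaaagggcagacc
Pclaf: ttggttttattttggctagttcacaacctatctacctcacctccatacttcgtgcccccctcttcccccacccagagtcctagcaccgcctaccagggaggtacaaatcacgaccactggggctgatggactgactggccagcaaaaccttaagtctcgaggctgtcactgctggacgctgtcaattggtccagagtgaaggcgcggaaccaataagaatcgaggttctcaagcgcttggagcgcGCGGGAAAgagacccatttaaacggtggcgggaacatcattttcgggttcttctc
Hells: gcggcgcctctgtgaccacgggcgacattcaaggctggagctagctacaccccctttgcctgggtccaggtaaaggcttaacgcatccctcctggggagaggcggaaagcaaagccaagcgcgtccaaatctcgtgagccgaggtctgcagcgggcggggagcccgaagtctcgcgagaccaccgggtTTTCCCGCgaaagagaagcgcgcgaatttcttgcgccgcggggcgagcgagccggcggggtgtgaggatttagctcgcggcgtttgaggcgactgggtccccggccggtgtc
Mcm5: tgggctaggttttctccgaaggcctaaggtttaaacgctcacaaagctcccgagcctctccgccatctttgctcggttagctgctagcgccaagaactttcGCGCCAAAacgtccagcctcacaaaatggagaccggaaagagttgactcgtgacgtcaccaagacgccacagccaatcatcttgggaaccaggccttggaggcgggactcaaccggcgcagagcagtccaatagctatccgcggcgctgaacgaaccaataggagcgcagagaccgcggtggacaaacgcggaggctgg

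The interferon gamma-induced list held fewer genes past the fold between the groups. Of 26 measured genes 5 were at least 1.5-fold lower in Glutoborin members and none was higher, with a list median of -0.31. Cxcl10, a chemokine that binds Cxcr3, had 8.26 CPM in Glutoborin and 27.8 CPM in Vehicle members (-1.75, -2.50 to -1.06). Gbp6 had 25.5 and 57.9 CPM (-1.18, -1.61 to -0.77), while Irf1, an early interferon gamma target, had 122 and 123 CPM. Without the Ccl5 route into the rule the count was 2 of 25, near the 9.27% lower over all measured genes there. Without members over 30000 UMIs it was 8 of 26, against 5.04% of all measured genes.

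All 23 measured S phase genes were at least 1.5-fold lower in Glutoborin members, with a list median of -1.14, and 14 of the 20 G2 and M phase genes were, with a median of -0.90 (-0.59 without members carrying Trdc, Zbtb16, Klrb1c or Ncr1). Rrm2, a subunit of the enzyme that makes DNA building blocks, had 42.0 CPM in Glutoborin and 137 CPM in Vehicle members (-1.71, -2.02 to -1.41). Pclaf, a partner of the replication clamp, had 88.7 and 246 CPM (-1.47, -1.69 to -1.26). Mcm5, part of the replicative helicase, had 46.0 and 118 CPM (-1.36, -1.67 to -1.06), and Hells, a chromatin remodeller, 30.2 and 92.3 CPM (-1.61, -1.99 to -1.25). Uhrf1, which guides DNA methylation after replication, had 25.8 and 76.9 CPM in Glutoborin and Vehicle members (-1.57, -1.98 to -1.18). Mki67, the proliferation marker Ki-67, had 62.1 and 132 CPM.

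These genes sat in few cells. At least 2 of 8 mitosis genes were detected in 26 of 240 Glutoborin members (10.8%, 7.20 to 15.5%) and in 33 of 177 Vehicle members (18.6%, 13.2 to 25.2%). No Glutoborin member and 9 Vehicle members had over 30000 UMIs, 8 of those 9 carried at least 2 mitosis genes, and together the 9 held 16.9% of the Vehicle members' UMIs. Without them 14 of 22 measured S phase genes stayed at least 1.5-fold lower, with a median of -0.64, and 2 of 19 G2 and M phase genes, with a median of -0.21. Without these 9 cells Rrm2 stood at -0.65 and Pclaf at -0.52, the second below 1.5-fold, and Hells, Uhrf1 and Mcm5 stood at -1.12, -0.86 and -0.85. Hist1h1b, a linker histone made in S phase, had 50.3 CPM in Glutoborin and 157 CPM in Vehicle members (-1.64, -1.93 to -1.36), and without those 9 cells its log2 ratio was 0.17. Fabp5, a fatty acid carrier, had 17.9 and 61.8 CPM in Glutoborin and Vehicle members (-1.78, -2.27 to -1.32), and -0.37 without them. In the remaining CD8 T cells the list medians were -0.07 for S phase and 0.14 for G2 and M phase. Whether the 9 cells hold 1 cell each was not tested, apart from the doublet calls.

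**Figure D3:**
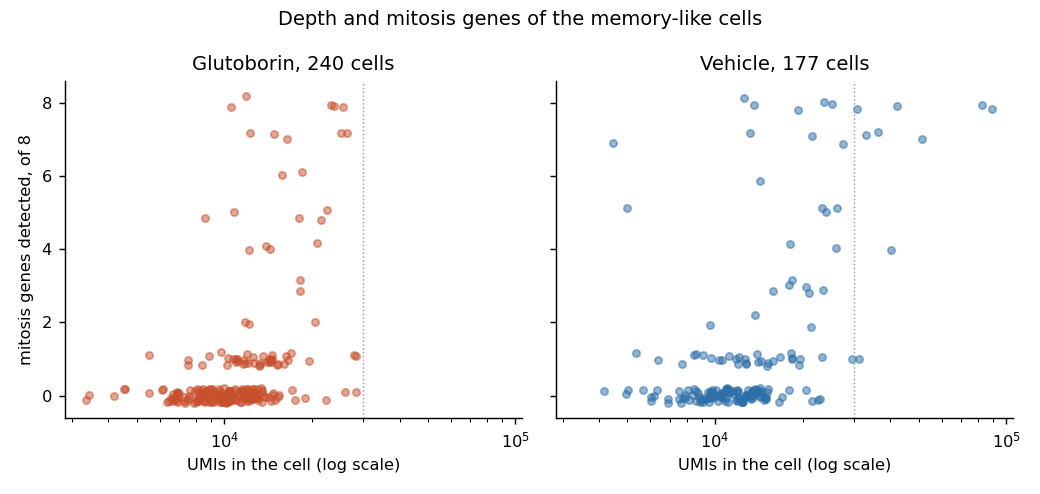
Each point is 1 memory-like cell, with its UMIs on a log axis and how many of 8 mitosis genes it carried (points spread up and down for clarity), Glutoborin at left and Vehicle at right. The dotted line marks 30000 UMIs, which 0 of 240 Glutoborin and 9 of 177 Vehicle members exceed.

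Some chaperones and glycolytic enzymes were also lower. Of 11 measured heat shock genes 5 were at least 1.5-fold lower in Glutoborin members, with a median of -0.53, and none was without the 9 deep Vehicle cells. Hsp90aa1, the inducible form of the chaperone Hsp90, had 439 CPM in Glutoborin and 846 CPM in Vehicle members (-0.95, -1.05 to -0.85). Of 15 glycolysis genes 3 were at least 1.5-fold lower, with a median of -0.43. Hk2, the hexokinase of activated cells, had 5.74 and 20.9 CPM (-1.86, -2.76 to -1.03), and Ldha, which makes lactate, 383 and 609.8 CPM. Il2ra, the high-affinity chain of the interleukin-2 receptor and an activation marker, had 17.9 and 34.8 CPM (-0.95, -1.48 to -0.44), and Tnfrsf9, the costimulatory receptor 4-1BB, 24.1 and 46.0 CPM (-0.93, -1.39 to -0.49).

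Fewer genes were higher in Glutoborin members. Cdc42ep3, which encodes an effector of the small GTPase Cdc42, had 51.7 CPM in Glutoborin and 20.5 CPM in Vehicle members (1.34, 0.87 to 1.82). Igfbp4 had 51.3 and 21.2 CPM (1.27, 0.81 to 1.75). In the remaining CD8 T cells Igfbp4 had a log2 ratio of 0.10. Hcst, the adaptor DAP10 that signals for NKG2D, had 556 CPM in Glutoborin and 364 CPM in Vehicle (0.61, 0.50 to 0.73). It stood under 1.5-fold by mean per-cell CPM (0.44), without members over 30000 UMIs (0.41) and without members carrying Trdc, Zbtb16, Klrb1c or Ncr1 (0.56). Mirt1, a long non-coding RNA, had 74.3 and 36.7 CPM, Tecpr1, an autophagy gene, 119 and 65.3 CPM, Rflnb 53.5 and 28.2 CPM, and Pkp3, a plakophilin, 63.2 and 34.4 CPM in Glutoborin and Vehicle members. With the rule on cells thinned to 2000 UMIs Mirt1 stood at 0.42 and Pkp3 at 0.35, both under 1.5-fold.

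S100a4, a calcium-binding protein of effector and memory cells, had 133 CPM in Glutoborin and 68.7 CPM in Vehicle members (0.95, 0.69 to 1.22). Its ratio was 0.10 when members with Trdc, Zbtb16, Klrb1c or Ncr1 were left out, and 0.46 without the Ccl5 route. An S100a4 UMI was seen in 26.2% of Glutoborin and 29.9% of Vehicle members, against 4.60% and 12.1% of B cells, and after thinning in 13.3% and 9.04% of members, against 2.15% and 5.44% of B cells. The unthinned share goes against the CPM, so no order is read for S100a4. S100a6, a related protein, had 513 and 300.5 CPM (0.77, 0.65 to 0.90), and stood at 0.44 with the rule on thinned cells. Gzma, a granzyme shared with NK cells, had 837 and 507 CPM (0.72, 0.63 to 0.82), but 3 cells held 34.1% of it in Glutoborin and 42.7% in Vehicle. A Gzma UMI was found in 60 of 240 Glutoborin and 67 of 177 Vehicle members, against 7.58% and 10.8% of B cells, and in 13.8% and 13.6% of members after thinning, against 3.58% and 4.60% of B cells. The unthinned share goes against the CPM, and with the rule on thinned cells the ratio turned to -0.85, so no order is read for Gzma.

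As lists, the NK-type receptors had a median of 0.52, with 3 of 15 measured genes at least 1.5-fold higher and 1 lower in Glutoborin members. The NK markers summed to 1238 CPM in Glutoborin and 875 CPM in Vehicle members. Gzma alone had 837 and 507 CPM of these, so no order is read for the sum. Members with Trdc, Zbtb16, Klrb1c or Ncr1 were 14.6% in Glutoborin (10.4 to 19.7%) and 9.60% in Vehicle (5.70 to 14.9%), and these intervals overlap. Without those members 3 of 10 measured NK-type receptor genes were higher and 2 lower, with a median of 0.43. Klra7, an inhibitory Ly49 receptor, had 48.1 and 20.1 CPM (1.26, 0.79 to 1.75), Ncr1 37.7 and 19.3 CPM (0.97, 0.47 to 1.48) and Klre1 70.4 and 44.4 CPM (0.66, 0.32 to 1.01), while Klra1 had 7.54 and 16.2 CPM (-1.11, -1.94 to -0.32). Members of the Ly49 family are close copies, and reads may be split among them. The 33 memory and innate-like memory genes had a median of 0.24, with 4 higher and none lower, and the 19 cytotoxic genes a median of 0.14, with 3 higher and none lower. Without members carrying Trdc, Zbtb16, Klrb1c or Ncr1, 5 of 17 measured cytotoxic genes were higher and 1 lower, with a median of 0.46. Of the 33 memory genes 3 were then higher and none lower, with a median of 0.21. The highest of the cytotoxic genes was Gzmk, a granzyme of early memory cells, at 35.9 and 20.1 CPM in Glutoborin and Vehicle members (0.84, 0.34 to 1.35).

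Of 18 naive and central memory genes 1, Igfbp4, was higher and none lower, with a median of 0.20. Il7r had 405 CPM in Glutoborin and 289 CPM in Vehicle members (0.48, 0.35 to 0.62), and Tcf7, the factor of long-lived memory, 238 and 186 CPM (0.36, 0.19 to 0.53). Of single cytokine receptor genes, Il18r1 had 75.4 and 49.8 CPM (0.60, 0.27 to 0.93) and Ifngr1 187 and 131 CPM (0.51, 0.31 to 0.71).

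**Figure D4:**
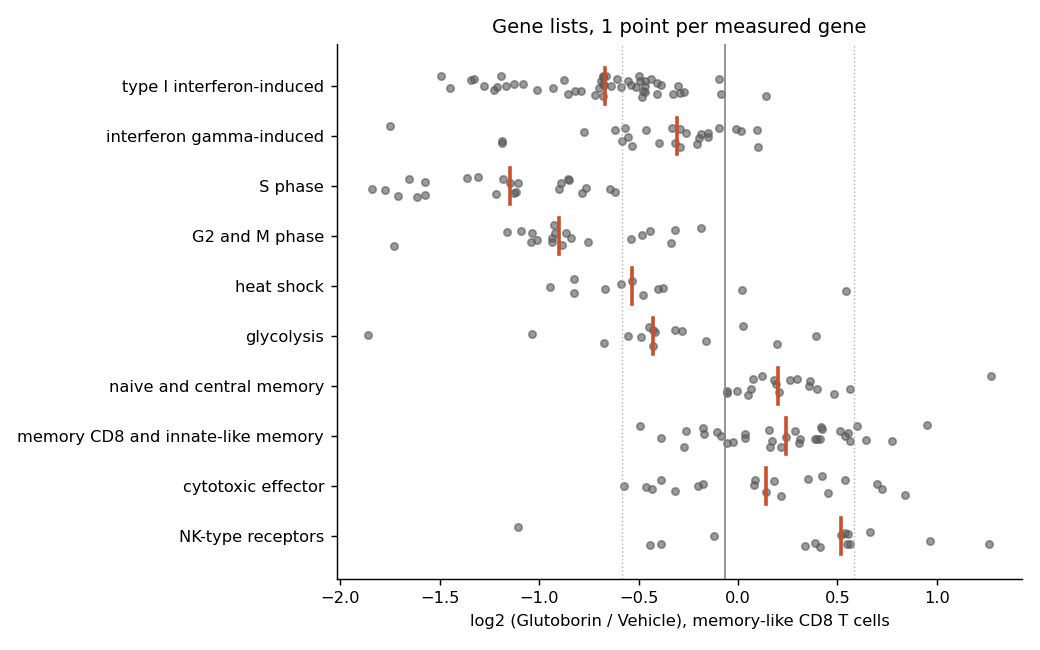
Log2 ratio of Glutoborin over Vehicle in memory-like CD8 T cells, 1 point per measured gene of 10 lists, with the list median as an orange bar. The grey line is the median of all 7172 measured genes (-0.07) and the dotted lines mark 1.5-fold. All 23 S phase genes lie left of the lower line, and no type I interferon gene lies right of the upper one.

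Several lists held few genes past 1.5-fold. Of 22 T cell receptor signalling genes 1 (Trat1) was higher, and of 20 class I presentation genes none was past the fold in either direction. Of 25 lymphocyte transcription factors 1 (Klf3) was higher and none lower, with a median of 0.03. Of 7 measured exhaustion and inhibitory receptor genes 1 (Ctla4) was lower, and Pdcd1, Lag3, Havcr2 and Tigit stayed under 50 UMIs. Of 22 oxidative phosphorylation genes 1 (Cycs) was lower. Of 19 glutamine and glutathione genes 2 were lower and 1 higher, and Slc7a5, an amino acid transporter subunit of dividing and activated T cells, had the lowest ratio, -1.78. Of 27 cytokine receptor and signalling genes 1 was higher and 2 lower, of 16 survival and death genes 1 was higher, of 26 activation genes 1 was higher and 2 lower, of 9 cytokine and chemokine genes 1 was higher, and of 15 chemokine receptor and homing genes none was past the fold.

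Receptor segments were read in few members, as the libraries hold the 3′ ends of transcripts. Exactly 1 Trbv segment was seen in 33 of 240 Glutoborin and 41 of 177 Vehicle members, and these cells used 17 segments in each library. The most used in both was Trbv12-2, in 6 of 33 Glutoborin cells (18.2%, 6.98 to 35.5%) and 6 of 41 Vehicle cells (14.6%, 5.57 to 29.2%). Its use was similar in the remaining CD8 T cells with exactly 1 segment, at 11 of 85 in Glutoborin (12.9%) and 13 of 89 in Vehicle (14.6%).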

How the data were processed

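The deposited counts are whole-number UMI counts per gene and cell, made by the authors with Cell Ranger 6.1.2 per the file headers. The submitters' processing notes name Cell Ranger 6.0.1, Seurat 4.3.0 and mm10, and the annotation release is not named in either. The labels' protocols name a 10x 3′ kit.

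Kept barcodes had 500 or more UMIs, 300 or more genes and a mitochondrial share below 10%, and the gate and rule were applied to raw UMIs. Counts were summed over the cells of a class per library and scaled to 1000000. A gene was measured with at least 50 UMIs over the 2 sums, and calls are ratios of at least 1.5-fold. Intervals are exact at 95%: Clopper-Pearson for shares and a conditional Poisson interval for ratios. PCR copies are removed by the UMI, and depth is given per class in the report. Ratios and their intervals were tested on simulated Poisson counts, which do not hold the uneven spread of a gene over cells. The gate, rule and thinning were not simulated. Scrublet (scanpy 1.11.5) called doublets, which were kept. Gene positions were found for 99.8% of 32285 genes and promoters are from RefSeq on GRCm38.p6. Python 3.11.15, numpy 2.4.6, scipy 1.17.1, pandas 2.3.3, matplotlib 3.10.9, R 4.3.3 and edgeR 4.0.16 (for TMM factors only) were used.

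Genes were named by rule: outside the membership rule and receptor segment, immunoglobulin, mitochondrial and ribosomal protein genes, with at least 50 CPM in the higher library and a UMI in 10% of its members, the 10 on each side with the ratio bound farthest from no change, and 15 on each side against the remaining CD8 T cells. The rule genes and the highest and lowest gene of each list were also open to naming. Some genes that the rule names are not reported here. Other list members were named after their values were seen. The members and lists were chosen with earlier results of these data known. The alternatives were other mitochondrial limits, doublets left out, other scalings and UMI minimums, changed rules, the 3 richest cells left out, per-cell means and, chosen after seeing the data, thinning to 5000 UMIs and leaving out members over 30000 UMIs or with at least 2 mitosis genes.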

Additional observations from a re-analysis of the deposited data

Results flagged for a closer look

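For 3 named genes the Glutoborin over Vehicle ratio had opposite signs in memory-like and remaining CD8 T cells. These differences were not tested, as there is 1 library per group. S100a4 had a log2 ratio of 0.95 in memory-like cells and -1.28 in remaining CD8 T cells. S100a6 stood at 0.77 in memory-like cells and -0.83 in remaining cells. Gzma stood at 0.72 in memory-like cells and -1.87 in remaining cells. The 3 richest memory-like cells held 42.2% of the S100a4 UMIs in Glutoborin and 42.1% in Vehicle, and for S100a6 22.8% and 35.3%. For Gzma they held 34.1% and 42.7%. The memory-like side was not stable: S100a4 stood at 0.10 without members carrying Trdc, Zbtb16, Klrb1c or Ncr1 and at 0.46 without the Ccl5 route, S100a6 at 0.44 with the rule on cells thinned to 2000 UMIs, and Gzma turned to -0.85 there, the sign of the remaining cells.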

How the results depend on the processing

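No paired analysis was possible because each group is 1 library. Shares and counts that moved by over their interval or 1.5 times, and ratios that turned, are given by setting. Unless shown, the cause was not tested. Without the Ccl5 route of the rule, 2 of 25 interferon gamma-induced genes were lower, against 9.27% of all measured genes. The Glutoborin share of members was then 17.8%. With members carrying Trdc, Zbtb16, Klrb1c or Ncr1 left out, that share was 17.73% and 8 of 10 measured NK-type receptors were higher than in remaining CD8 T cells. With the rule on cells thinned to 2000 UMIs the shares were 6.27% in Glutoborin and 5.255% in Vehicle. Of 2774 measured genes 165 (5.95%) were higher and 250 (9.01%) lower, against 3.92% and 9.01% in the main setting. Among lists, 13 of 30 type I interferon, 9 of 10 S phase and 4 of 7 G2 and M phase genes were lower. Of NK-type receptors 8 of 10 were higher than in remaining cells, and the Glutoborin over Vehicle ratio of Gzma turned to -0.85. With at least 10 UMIs 904 (8.94%) of 10113 genes were higher and 1300 (12.9%) lower. Of 11659 genes, 890 and 835 differed from remaining cells upward and downward. With at least 1 UMI in each library 1461 (12.3%) of 11890 genes were higher and 1753 (14.7%) lower. There 8 of 29 interferon gamma genes were lower, and 954 of 11556 genes were higher than in remaining cells. More genes are tested in both settings. By mean per-cell CPM 9 of 26 interferon gamma, 8 of 20 G2 and M phase and 2 of 11 heat shock genes were lower. Over all measured genes it was 6.82%. Without the 3 richest cells of each gene 426 (5.94%) of 7172 genes were higher. Of 11 heat shock genes 3 were lower, against 7.28% of all measured genes, and 892 of 9393 genes were below remaining cells.

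With settings chosen after seeing the data, thinning cells of at least 5000 UMIs to that depth gave shares of 17.16% in Glutoborin and 13.71% in Vehicle. The log2 ratio was 0.32. Without members over 30000 UMIs 349 (5.04%) of 6929 genes were lower. Among them were 8 of 26 interferon gamma, 14 of 22 S phase, 2 of 19 G2 and M phase and 0 of 11 heat shock genes. Hist1h1b turned to 0.17. Without members carrying 2 or more mitosis genes the Vehicle share was 17.29%. Of 6265 measured genes 186 (2.97%) were higher and 343 (5.47%) lower. Among the lower were 8 of 25 interferon gamma, 10 of 17 S phase, 1 of 6 G2 and M phase and 1 of 11 heat shock genes. Against remaining cells 294 of 9198 genes were higher. Hist1h1b then turned to 1.15. Stmn1 (-1.09 in Glutoborin) and Birc5 (-3.04 in Glutoborin, -3.99 in Vehicle) turned against remaining cells, as this setting removes cells by such genes from the members only. Mitochondrial limits of 5% and 25%, leaving out doublet calls, TMM and median-of-ratios scaling moved none of the main counts by over 1.5 times. Of 1119 gene ratios under alternatives 1113 kept their sign. Depth limits the low genes: 1 library per group gives counting intervals only.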
